A study of Mus musculus with 8 samples.

Results

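The genes of glucose uptake, glycolysis, lactate handling, the pentose phosphate pathway and the citrate cycle were examined in endothelial cells (ECs) of neonatal mouse lungs. They were chosen by symbol, as the rows of the deposited gene table that carry 1 of 46 listed gene symbols. The 46 symbols named 47 of the 54532 rows, because Aldoa names 2 of them. Of these, 46 rows held enough reads to be tested, among 15564 tested rows in all, and Eno2 did not. The count table covers 8 libraries of bulk RNA-seq from ECs of wild-type mice, 4 from pups kept in room air (normoxia, 21% O2) and 4 from pups kept in hyperoxia (80% O2). Both exposures ran from birth to postnatal day 14, when the lungs were taken, so all 8 libraries share age, genotype and tissue. The study models the arrested alveolar growth of bronchopulmonary dysplasia, the chronic lung disease of preterm infants given oxygen, and rotated nursing dams between both oxygen levels. ECs were taken from digested lungs with magnetic beads, by removing CD45 cells and then keeping CD31 cells. The sources used here do not say whether a library was 1 pup or a pool, so p-values measure only the spread between these libraries.

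Glycolysis splits glucose into pyruvate, and its pace is set mainly at the hexokinase, phosphofructokinase and pyruvate kinase steps. Pyruvate is either reduced to lactate in the cytosol or converted to acetyl-CoA inside mitochondria by the pyruvate dehydrogenase complex. Pyruvate dehydrogenase kinases switch that complex off by phosphorylation. The pentose phosphate pathway branches from glucose 6-phosphate and yields NADPH and ribose 5-phosphate, while the citrate cycle oxidises acetyl groups and supplies carbon for synthesis. ECs are known to draw much of their ATP from glycolysis, and the activator PFKFB3 is known for its part in vessel sprouting.

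Library totals ranged from 16098086 to 18300730 assigned reads, and the member rows together took 0.280% to 0.339% of them. Levels below are CPM, read counts brought to a common library size with trimmed mean factors, given as mean ± SD with n = 4 libraries a group, and fold changes are log2 of hyperoxia over normoxia with a standard error (SE). A gene was called when its adjusted p from edgeR's quasi-likelihood test was under 0.05 over all tested genes. The 8 endothelial markers summed to 14265 to 15276 CPM in normoxia and 13949 to 14712 CPM in hyperoxia, led per length by Cldn5, a tight junction protein, at 2066 ± 92.4 and 2408 ± 110.3 CPM. Of these 8, Cldn5, Kdr and Emcn were called higher, Erg, Tie1 and the angiopoietin receptor Tek were called lower, and Pecam1 and Cdh5 were not called. Tek had the largest change, from 1182 ± 68.2 to 682 ± 49.8 CPM (log2 fold change -0.79). All 8 alveolar type 2 markers and all 6 alveolar type 1 markers were called higher in hyperoxia. Their summed levels were 237 to 335 CPM in normoxia against 759 to 2287 CPM in hyperoxia for type 2, and 71.8 to 88.1 against 139.6 to 375 CPM for type 1. Hyperoxia 3 had the lowest of both in its group, 759 CPM where the other 3 had at least 2007, and 139.6 where they had at least 335. Sftpc, the surfactant protein of type 2 cells, had 106 ± 31.1 CPM in normoxia against 1121 ± 476 in hyperoxia, and Hopx, a type 1 marker, at 42.2 ± 3.77 and 65.5 ± 12 CPM. Fibroblast markers were called higher for 4 of 7, led by Col3a1, with sums of 114 to 222 and 172 to 407 CPM. Mural markers were called higher for 5 of 7, led by Pdgfrb, with sums of 18.5 to 35.8 and 35.8 to 79.0 CPM. Leukocyte markers summed to 114 to 225 CPM in normoxia and 116 to 209 CPM in hyperoxia, with 1 of 8, Cd68, called lower. Erythroid and platelet markers, led by the globin Hbb-bs, summed to 122 to 219 and 95.0 to 139 CPM, with 4 of 8 called lower. Airway markers, led by Scgb1a1, stayed between 1.53 and 3.20 CPM in every library with none called, Scgb3a2 and Dynlrb2 each being at 0 in at least 1 library. Cardiomyocyte markers summed to 7.53 to 10.6 and 27.4 to 41.3 CPM, with 2 of 6, Tnnt2 and Ryr2, called higher and Myh6 at 0 in every normoxia library. Most of these sums was Ryr2, at 7.30 ± 1.22 and 31.8 ± 5.57 CPM. Tnni3, which had the most FPKM of the list in normoxia, was at 1.25 ± 0.384 and 1.06 ± 0.219 CPM and was not called. The part of these other cells in the member results was not tested, and in such bulk samples fewer cells of a type and less RNA per cell cannot be told apart.

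Of the 46 member rows tested, 18 were called higher and 4 were called lower in hyperoxia. Over all tested genes, 18.5% were called higher, 17.1% lower and 35.6% in either direction. The 4 lower members were Pfkl, Pdk1, Pdk2 and Rpia, and 12 of the 22 called members had a log2 fold change smaller than 0.5 in size. The median log2 fold change was 0.19 over the member rows and -0.0040 over all tested genes, and 35 of the 46 rows lay above 0. Only 4 members, Pfkfb3, Ldhb, Pcx and Me1, were called and changed 2-fold or more (1 or more on the log2 scale), which 6.98% of all tested genes did. The CPM of both groups did not overlap for 23 of the 46 rows, against 35.4% of all tested genes.

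**Figure D1:**
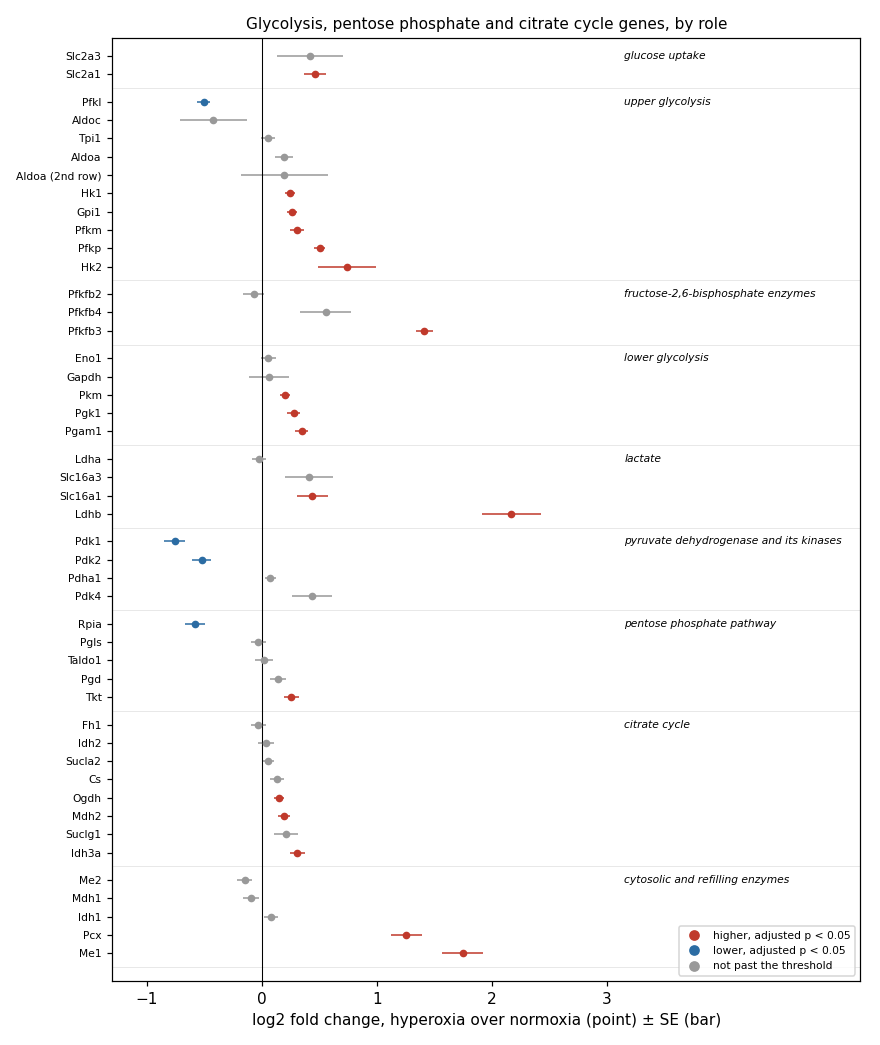
Log2 fold change of hyperoxia over normoxia for the 46 tested member rows, grouped by role, with points for the estimate and bars for ± 1 SE (4 libraries a group). Red points were called higher, blue points lower and grey points were not called. Most points lie between 0 and 0.5, with Ldhb, Me1, Pfkfb3 and Pcx to the right and Pdk1, Rpia, Pdk2 and Pfkl to the left.

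Levels per length are the deposited FPKM, which match the gene lengths deposited with the counts. These can differ from transcript lengths, with 3562 bases for Mdh2 and 2588 for Idh2 against longest transcripts of 1456 and 1745. The order of genes therefore depends on the length used. In FPKM, the most abundant members in normoxia were Pkm at 71.8 ± 3.68, Ldha at 70.2 ± 4.85 and Aldoa at 65.6 ± 7.17. Their values lie within their SDs of each other. Taldo1 at 50.3 ± 5.23, Gpi1 at 36.5 ± 0.919 and Idh2 at 34.0 ± 2.71 FPKM followed. At the low end were Hk2 at 0.456 ± 0.179 and Aldoc at 0.301 ± 0.0683 FPKM. Of the 4 members that changed 2-fold or more, 3 were scarce. Pcx had 0.486 ± 0.0302, Ldhb 0.820 ± 0.210 and Me1 1.38 ± 0.238 FPKM in normoxia, whereas Pfkfb3 had 6.62 ± 0.0878 FPKM.

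The member with the lowest adjusted p was Pfkfb3, which encodes the kinase-dominant isoform of the bifunctional enzyme that makes fructose 2,6-bisphosphate, the strongest allosteric activator of phosphofructokinase. Pfkfb3 (ENSMUSG00000026773, mm10 chr2:11471433-11554077, minus strand) was at 50.6, 51.4, 50.3 and 49.5 CPM in normoxia 1 to 4 and at 153, 138, 119 and 127 CPM in hyperoxia 1 to 4. Every hyperoxia library was more than double any normoxia library, and the log2 fold change was 1.41 (SE 0.0715, adjusted p = 3.37e-07). The other isoforms were not called. Pfkfb2 was at 12.4, 13.7, 11.4 and 13.4 CPM in normoxia and 13.0, 12.2, 11.6 and 11.6 CPM in hyperoxia (log2 fold change -0.07, SE 0.0916, adjusted p = 0.574). Pfkfb4 was at 3.86, 3.76, 4.64 and 2.32 against 5.60, 5.04, 4.06 and 6.71 CPM, with overlapping groups (0.56, SE 0.222, adjusted p = 0.0755). Summed over the 3 member isoforms, the FPKM went from 9.10 ± 0.213 to 20.4 ± 2.02, and the share held by Pfkfb3 went from 72.7% ± 0.768 to 86.5% ± 1.06. Pfkfb1, no member and not in that sum, had 0.455 ± 0.0309 and 0.424 ± 0.0284 FPKM. When the mean log2 level of the alveolar type 1 and type 2 markers was added to the fit as a covariate, Pfkfb3 was the only member still called (log2 fold change 1.01, SE 0.163, adjusted p = 0.0157). That score did not overlap between the groups, so in this fit the score and the condition cannot be told apart. The SEs were larger in it, and the members that lost their calls kept their fold changes to different degrees. Pfkl was at -0.50 (SE 0.175), Pcx at 1.12 (SE 0.386), Pfkp at 0.42 (SE 0.142), Rpia at -0.70 (SE 0.273) and Pdk2 at -0.89 (SE 0.245), near or beyond their values without the score. Pdk1 was at -0.42 (SE 0.254), Me1 at 0.65 (SE 0.360) and Ldhb at 0.54 (SE 0.501), closer to 0 than without it. The same held for Pfkm at 0.11 (SE 0.173), Pgk1 at 0.14 (SE 0.161) and Idh3a at 0.018 (SE 0.165).

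Phosphofructokinase itself, the committed step of glycolysis, is a tetramer built from liver (Pfkl), muscle (Pfkm) and platelet (Pfkp) subunits, and these moved in opposite directions. Pfkl (ENSMUSG00000020277, mm10 chr10:77986947-78010083, minus strand) fell from 78.3, 72.4, 73.8 and 68.9 CPM to 48.2, 54.3, 53.1 and 51.3 CPM (log2 fold change -0.50, SE 0.0561, adjusted p = 6.54e-05). Pfkp (ENSMUSG00000021196, mm10 chr13:6579768-6648777, minus strand) rose from 52.7, 55.3, 54.4 and 53.6 to 79.9, 78.6, 74.6 and 72.9 CPM (0.50, SE 0.0468, adjusted p = 1.92e-05). Pfkm rose from 28.6, 28.3, 27.9 and 30.0 to 34.7, 37.9, 32.9 and 36.6 CPM (0.31, SE 0.0600, adjusted p = 0.00251). None of the 3 had overlapping groups. Per length, Pfkl made up 46.5% ± 1.72 of the summed subunit FPKM in normoxia and 32.2% ± 1.42 in hyperoxia, Pfkm 36.4% ± 1.46 and 44.1% ± 1.45, and Pfkp 17.1% ± 0.584 and 23.7% ± 1.17. The sum over the 3 subunits was 23.4 ± 0.461 FPKM in normoxia and 24.0 ± 0.920 FPKM in hyperoxia, with overlapping groups. The subunit with the most FPKM was thus Pfkl in all 4 normoxia libraries and Pfkm in all 4 hyperoxia libraries. These FPKM match gene lengths of 6675 bases for Pfkl, 3340 for Pfkm and 13401 for Pfkp. The longest transcripts of the 3 have 3730, 2879 and 4145 bases. Which subunit leads, and the size of each share, therefore depend on the length used. In CPM, which are not divided by length, Pfkl was highest in normoxia and Pfkp in hyperoxia.

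**Figure D2:**
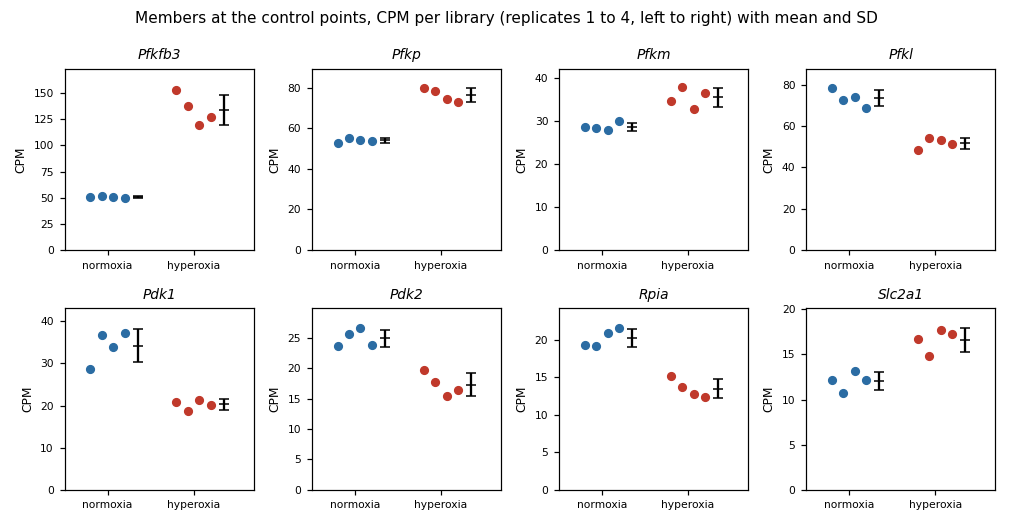
CPM in each library (points, replicates 1 to 4 from left to right in each group) with the group mean and SD (black), for 8 members at control points of the pathways, on axes that start at 0. Pfkfb3, Pfkp, Pfkm and Slc2a1 were higher in all 4 hyperoxia libraries than in any normoxia library, and Pfkl, Pdk1, Pdk2 and Rpia were lower in all 4.

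Upstream of these steps, Slc2a1, the main glucose transporter of endothelium (GLUT1), was at 12.2, 10.8, 13.2 and 12.2 CPM in normoxia and 16.7, 14.8, 17.7 and 17.3 CPM in hyperoxia, without overlap (log2 fold change 0.46, SE 0.0939, adjusted p = 0.00314). Slc2a3, the high-affinity transporter GLUT3, was at 5.57, 3.13, 5.37 and 3.31 against 9.02, 4.36, 3.95 and 5.82 CPM and was not called (0.42, adjusted p = 0.291). Hk1, which phosphorylates glucose on entry and held 96.9% ± 1.15 of the summed Hk1 and Hk2 FPKM in normoxia, was at 123, 119, 122 and 120.2 CPM in normoxia and 135, 147, 151 and 141 CPM in hyperoxia (0.24, SE 0.0455, adjusted p = 0.00191). Hk2, the inducible hexokinase, was called at low level, with 2.45, 2.33, 4.31 and 1.88 against 5.25, 4.93, 3.43 and 4.72 CPM (0.74, SE 0.254, adjusted p = 0.0434). Normoxia 3 lay above hyperoxia 3 for Hk2, and the call was lost without normoxia 1, 2 or 4 or hyperoxia 1, 2 or 4, with adjusted p between 0.0841 and 0.112 and log2 fold changes between 0.59 and 0.73. Of 20 fits, the main one included and the marker covariate left out, 9 called Hk2. Gpi1, which converts glucose 6-phosphate to fructose 6-phosphate, was higher, at 238 ± 5.76 and 285 ± 12.2 CPM (0.26, adjusted p = 0.0012). Aldoa, the most abundant upper glycolysis member per length, was at 214, 172, 205 and 179 against 225, 222, 201 and 234 CPM and was not called (0.19, SE 0.0765, adjusted p = 0.072). A further row of the same symbol (ENSMUSG00000114515) held 0.793 ± 0.183 and 0.906 ± 0.458 CPM (adjusted p = 0.721). Aldoc, another aldolase, at 1.04, 1.08, 1.17 and 0.663 against 0.856, 0.680, 0.515 and 0.888 CPM, and Tpi1, the triose phosphate isomerase, at 45.6 ± 3.69 and 47.2 ± 0.837 CPM, were not called (adjusted p = 0.288 and 0.553).

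In lower glycolysis 3 of 5 tested members were called, all higher and by small steps, where 35.6% of all tested genes were called in either direction. Phosphoglycerate kinase Pgk1 was higher, at 65.7 ± 4.46 and 79.5 ± 1.87 CPM (log2 fold change 0.28, adjusted p = 0.00269), as was the mutase Pgam1, at 51.1 ± 3.78 and 64.9 ± 1.27 CPM (0.35, adjusted p = 0.000935). Pkm, the pyruvate kinase gene, was at 373, 340.4, 379 and 356 CPM in normoxia and 416, 417, 414 and 415 CPM in hyperoxia (0.20, SE 0.0448, adjusted p = 0.00548), with an SD of 1.18 CPM among the hyperoxia libraries and 17.3 CPM among the normoxia ones. The enolase Eno1 was at 124, 109.9, 138 and 121 against 133, 129, 122 and 128 CPM and was not called (0.05, adjusted p = 0.552). Eno2, the neuronal enolase, had 0.284 ± 0.0732 and 0.338 ± 0.154 CPM. Gapdh, the dehydrogenase that many studies, this one included, use as a reference transcript, was at 18.5, 19.2, 12.3 and 17.2 against 14.6, 23.3, 17.4 and 14.7 CPM (0.06, SE 0.174, adjusted p = 0.817). At 4.03 ± 0.737 FPKM it ranked 31st of the members, below both neighbours in the pathway. That rank depends on the length used, since its gene length is 4133 bases and its longest transcript has 1420. In the annotation, 88.0% of its longest transcript had a copy elsewhere at 97% identity or more, in 49 other genes of which 46 are pseudogenes. Such copies also covered 85.6% of Eno1, 76.8% of Ldhb, 68.8% of Pgk1, 65.5% of Pkm, 60.1% of Me1, 43.1% of Pgam1, 36.3% of Gpi1 and 19.3% of Tpi1, so the counts of these 9 members are uncertain, since reads shared with a copy can be split or dropped. Leaving these 9 out, a choice made after the data were seen, 12 members were called higher and 4 lower. Of all tested genes, 18.5% were called higher and 17.1% lower.

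The lactate members showed 1 large change at low level. Ldha, the dominant subunit of lactate dehydrogenase, was at 240.4, 212, 247 and 237 CPM in normoxia and 213, 230.1, 232 and 245 CPM in hyperoxia, with overlapping groups (log2 fold change -0.03, SE 0.0602, adjusted p = 0.77). Ldhb, the heart subunit, which favours oxidation of lactate to pyruvate, rose from 1.71, 1.08, 1.40 and 0.994 to 5.60, 7.25, 3.66 and 6.82 CPM (2.17, SE 0.259, adjusted p = 0.000109). Per length Ldhb was 1.15% ± 0.253 of the summed Ldha and Ldhb FPKM in normoxia and 5.06% ± 1.29 in hyperoxia, while the sum was 71.0 ± 4.97 and 72.8 ± 4.44 FPKM. The transporter Slc16a1 (MCT1) was higher, at 4.53, 5.12, 5.54 and 4.31 against 6.91, 7.42, 6.01 and 6.05 CPM (0.44, SE 0.135, adjusted p = 0.0274), a call lost without normoxia 1 or 4 or hyperoxia 1 or 2 (adjusted p 0.0640 to 0.0856). Of 20 fits, the main one included and the marker covariate left out, 13 called Slc16a1. The lactate exporter Slc16a3 (MCT4) was at 5.63, 4.27, 7.50 and 4.58 against 9.54, 7.48, 5.72 and 6.49 CPM and was not called (0.41, adjusted p = 0.154).

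At the pyruvate dehydrogenase step both of the more abundant member kinases fell. Pdk1 (ENSMUSG00000006494, mm10 chr2:71873224-71903858, plus strand), whose product phosphorylates and inhibits pyruvate dehydrogenase and which is a known target of hypoxia-inducible factor, was at 28.8, 36.9, 34.0 and 37.3 CPM in normoxia and 20.9, 18.6, 21.4 and 20.1 CPM in hyperoxia (log2 fold change -0.76, SE 0.0886, adjusted p = 9.15e-05). Pdk2 (ENSMUSG00000038967, mm10 chr11:95026258-95041354, minus strand) was at 23.7, 25.7, 26.6 and 23.9 against 19.8, 17.7, 15.5 and 16.4 CPM (-0.52, SE 0.0859, adjusted p = 0.000852). Neither had overlapping groups. Pdk4, the kinase known to rise on fasting, was at 1.71, 2.28, 2.18 and 2.26 against 3.08, 2.55, 2.63 and 3.16 CPM, groups that did not overlap and a difference of the other sign that was not called (0.43, SE 0.176, adjusted p = 0.0792). The summed FPKM of the 3 member kinases was 12.8 ± 0.803 in normoxia and 8.86 ± 0.595 in hyperoxia. Pdk2 held 61.3% ± 2.71 and 61.5% ± 2.88 of it, Pdk1 34.1% ± 2.4 and 29.3% ± 2.52, and Pdk4 4.65% ± 0.338 and 9.14% ± 0.876. The sum and shares leave out Pdk3, a further kinase that is no member. Pdk3 had 2.69 ± 0.374 FPKM in normoxia and 2.82 ± 0.289 in hyperoxia and was not called (0.06, SE 0.134, adjusted p = 0.742). The target subunit of the kinases, Pdha1, was at 73.0, 67.7, 72.9 and 75 against 78.3, 77.8, 73.2 and 74.2 CPM and was not called (0.07, SE 0.0480, adjusted p = 0.268).

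**Figure D3:**
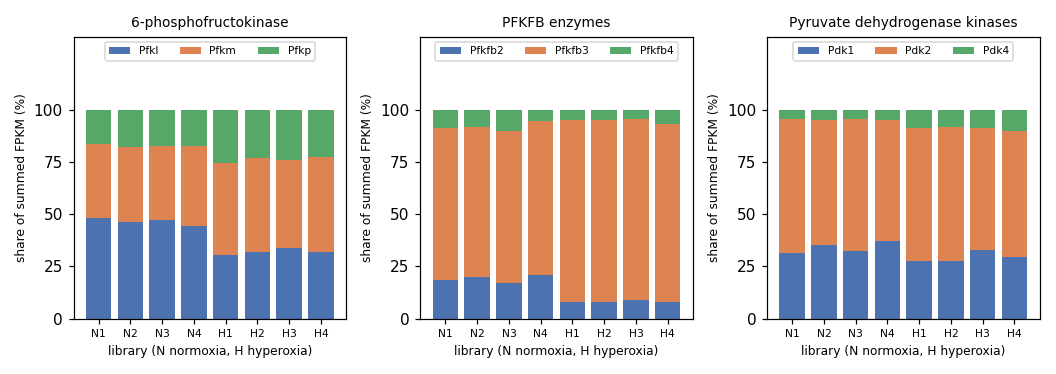
Stacked shares of the summed FPKM (percent) held by the 3 phosphofructokinase subunits, the 3 member PFKFB enzymes and the 3 member pyruvate dehydrogenase kinases in every library, N1 to N4 for normoxia and H1 to H4 for hyperoxia. Pfkfb1 and Pdk3, which are no members, are left out. In all hyperoxia libraries the Pfkl and Pfkfb2 shares are lower and the Pfkm, Pfkp, Pfkfb3 and Pdk4 shares higher than in any normoxia library, while the Pdk1 and Pdk2 shares overlap between the groups.

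The promoters of 4 called genes of the phosphofructokinase and pyruvate dehydrogenase steps are printed here because they include changes of both signs, Pfkfb3 and Pfkp being higher and Pfkl and Pdk1 lower. Each is the 300 bases from 250 before to 50 after the RefSeq start (GRCm38.p6), 5′ to 3′ on the gene's strand, at chr2:11553880-11554179 (minus) for Pfkfb3, chr13:6648722-6649021 (minus) for Pfkp, chr10:78009758-78010057 (minus) for Pfkl and chr2:71872974-71873273 (plus) for Pdk1. Capitals mark the core of the hypoxia response element, ACGTG or GCGTG, searched on both strands.
Pfkfb3: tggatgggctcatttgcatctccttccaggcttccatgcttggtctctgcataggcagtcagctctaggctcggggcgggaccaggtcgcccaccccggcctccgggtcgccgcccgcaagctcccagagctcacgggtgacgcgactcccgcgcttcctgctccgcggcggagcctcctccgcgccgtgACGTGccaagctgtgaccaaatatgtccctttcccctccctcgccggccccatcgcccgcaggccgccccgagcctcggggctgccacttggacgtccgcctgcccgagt
Pfkp: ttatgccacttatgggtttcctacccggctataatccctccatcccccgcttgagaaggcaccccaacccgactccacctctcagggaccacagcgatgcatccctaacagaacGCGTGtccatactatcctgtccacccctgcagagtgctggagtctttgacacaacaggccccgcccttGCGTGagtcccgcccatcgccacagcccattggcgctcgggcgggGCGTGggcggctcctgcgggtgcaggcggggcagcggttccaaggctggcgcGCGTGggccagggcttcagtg
Pfkl: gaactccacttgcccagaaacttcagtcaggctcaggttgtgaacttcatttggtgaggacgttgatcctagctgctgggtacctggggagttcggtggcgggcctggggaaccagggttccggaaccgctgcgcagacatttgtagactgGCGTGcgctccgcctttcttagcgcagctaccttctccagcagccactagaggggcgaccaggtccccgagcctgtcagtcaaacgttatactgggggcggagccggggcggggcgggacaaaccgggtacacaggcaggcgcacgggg
Pdk1: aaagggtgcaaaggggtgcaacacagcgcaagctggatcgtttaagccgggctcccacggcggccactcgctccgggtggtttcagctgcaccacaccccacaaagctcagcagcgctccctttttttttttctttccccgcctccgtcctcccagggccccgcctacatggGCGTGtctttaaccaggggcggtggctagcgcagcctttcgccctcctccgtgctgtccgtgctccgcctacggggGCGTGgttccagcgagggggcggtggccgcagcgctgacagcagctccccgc
The core occurred once in Pfkfb3, 4 times in Pfkp, once in Pfkl and 2 times in Pdk1, so it was found in promoters of members that rose and of members that fell. Of the 43 member promoters in RefSeq, 34 (79.1%) held it, among them 76.5% of the 17 that belong to higher members, all 4 that belong to lower members and 81.0% of the 21 that belong to members not called. Of all 27025 promoters of this length, 43.8% held it. The member promoters also had more CpG dinucleotides, a median of 21 against 7, and a median GC content of 61.0% against 52.7%, and both cores contain a CpG. The antioxidant response element core, TGACNNNGC on either strand, occurred in 9.30% of member promoters and 12.4% of all promoters, and Me1 and Slc16a1 were the called members that held it.

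In the pentose phosphate pathway the members split. Rpia (ENSMUSG00000053604, mm10 chr6:70765720-70792232, minus strand), which interconverts ribose 5-phosphate and ribulose 5-phosphate, fell from 19.3, 19.2, 20.9 and 21.5 CPM to 15.1, 13.7, 12.8 and 12.4 CPM, with no overlap (log2 fold change -0.58, SE 0.0866, adjusted p = 0.000445). The transketolase Tkt rose, at 116 ± 11.3 and 138 ± 2.96 CPM (0.25, SE 0.0652, adjusted p = 0.0115). Taldo1, the transaldolase and the most abundant of these members per length, was at 116, 96.4, 122 and 107 against 122, 104, 103 and 116 CPM (0.02, SE 0.0791, adjusted p = 0.902). Of the oxidative branch, which makes NADPH, the lactonase Pgls was at 58.4 ± 4.35 and 57.2 ± 3.93 CPM and the dehydrogenase Pgd at 56.3 ± 4.88 and 62.1 ± 3.31 CPM, neither of them called (adjusted p = 0.765 and 0.131). The gatekeeper of that branch, G6pdx, is no member and was at 21.8 and 22.9 CPM on average (0.07, SE 0.0884, adjusted p = 0.580).

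Citrate cycle members had small fold changes. Of 8, 3 were called higher and none lower, with a median log2 fold change of 0.14. This count is near the 35.6% of all tested genes called in either direction. Idh3a, a subunit of the NAD-dependent isocitrate dehydrogenase, went from 30.0 ± 1.83 to 37.2 ± 1.81 CPM (0.31, SE 0.0625, adjusted p = 0.00304). Mdh2, the mitochondrial malate dehydrogenase, was at 113, 96.2, 112 and 107 against 123, 124, 118 and 124 CPM (0.19, SE 0.0554, adjusted p = 0.0206), and the oxoglutarate dehydrogenase subunit Ogdh went from 182 ± 5.97 to 201 ± 4.45 CPM (0.15, SE 0.0417, adjusted p = 0.0169). The calls of Mdh2 and Ogdh did not hold without hyperoxia 4 (adjusted p = 0.0523 and 0.0537), and that of Mdh2 not without hyperoxia 2 either (0.0580). Idh2, the NADP-dependent mitochondrial enzyme, had the most FPKM of the group in normoxia, though Ogdh, Cs and Mdh2 had more CPM. It was at 94.9, 79.4, 88.2 and 92.2 against 99.1, 92.2, 84.1 and 87.5 CPM (0.03, SE 0.0678, adjusted p = 0.735). Citrate synthase Cs at 147 ± 12 and 161 ± 5.17 CPM, the succinyl-CoA ligase subunits Sucla2 at 44.9 ± 1.78 and 46.5 ± 1.71 CPM and Suclg1 at 29.4 ± 3.77 and 33.9 ± 3.75 CPM, and fumarase Fh1 at 37.7 ± 1.64 and 36.9 ± 2.80 CPM were not called (adjusted p = 0.115, 0.466, 0.153 and 0.733).

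Among the enzymes that refill the cycle or act beside it, the largest changes were in Me1 and Pcx. Me1 (ENSMUSG00000032418, mm10 chr9:86581371-86695953, minus strand), the cytosolic malic enzyme that yields NADPH and pyruvate, was at 6.25, 4.10, 5.59 and 5.52 CPM in normoxia and 18.8, 19.4, 12.7 and 21.0 CPM in hyperoxia (log2 fold change 1.74, SE 0.174, adjusted p = 3.2e-05). Pcx (ENSMUSG00000024892, mm10 chr19:4510472-4621752, plus strand), which carboxylates pyruvate to oxaloacetate, was at 2.08, 2.45, 2.29 and 2.26 against 5.65, 5.61, 5.15 and 5.33 CPM (1.25, SE 0.135, adjusted p = 5.3e-05). In both, every hyperoxia library exceeded every normoxia library by about 2-fold or more. Me2, the mitochondrial malic enzyme, was at 27.1, 27.9, 28.5 and 29.8 against 26.3, 25.7, 26.7 and 23.4 CPM and was not called although the groups did not overlap (-0.15, SE 0.0632, adjusted p = 0.0888). The Me1 share of the summed Me1 and Me2 FPKM went from 10.8% ± 1.76 to 30.9% ± 5.48. Cytosolic Mdh1 was at 52.4, 46.1, 54.3 and 49.4 against 51.8, 45.5, 46.4 and 45.6 CPM, and cytosolic Idh1 at 35.8, 32.4, 35.3 and 38.5 against 39.0, 35.5, 37.3 and 38.4 CPM, neither of them called (adjusted p = 0.289 and 0.349).

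Ratios between isozymes of a step, taken as log2 of FPKM within each library, do not depend on the scaling between libraries and are given as a description. Of 15 pairs, 7 had groups that did not overlap. For single genes, the CPM of the groups did not overlap for 35.4% of all tested genes. No such share was computed for pairs of other genes, and some of these pairs have a gene in common. Ldhb over Ldha went from -6.45 ± 0.318 to -4.27 ± 0.438, Me2 over Me1 from 3.06 ± 0.271 to 1.18 ± 0.385, and Pfkfb2 over Pfkfb3 from -1.93 ± 0.118 to -3.41 ± 0.0817. Pdk4 over Pdk1 went from -2.88 ± 0.0456 to -1.68 ± 0.153, Pfkp over Pfkl from -1.45 ± 0.0923 to -0.44 ± 0.111, Pfkm over Pfkl from -0.35 ± 0.109 to 0.46 ± 0.102, and Mdh2 over Mdh1 from 0.61 ± 0.0340 to 0.90 ± 0.0958. The Pfkm over Pfkl ratio was below 0 in all normoxia libraries and above 0 in all hyperoxia libraries. Whether a ratio of FPKM lies above or below 0 depends on the gene lengths used, while its difference between the groups does not. The overlapping pairs had differences in the mean log2 ratio from -0.83 for Pfkfb4 over Pfkfb3 and -0.63 for Aldoc over Aldoa to 0.55 for Hk2 over Hk1.

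Because hyperoxia 3 carried the lowest alveolar epithelial marker levels of its group, the position of that library was measured for each called member, as the percent of the way from the normoxia mean to the mean of hyperoxia 1, 2 and 4. This measure was chosen after the data were seen. The summed type 2 and type 1 markers of hyperoxia 3 stood at 25.3% and 22.4% of the way, and the fibroblast and mural sums at 9.61% and 29.6%. Hk2 stood at 31.1%, Ldhb at 45.0%, Me1 at 51.2%, Pfkm at 54.0%, Idh3a at 55.9% and Slc16a1 at 59.2%. Pfkfb3 stood at 77.6%, Pcx at 88.4%, Pfkp at 88.9%, Pdk1 at 89.3% and Pfkl at 91.6%, while Rpia, Pdk2, Slc2a1, Hk1 and Gpi1 were past the mean of the other hyperoxia libraries, at 115%, 135%, 136%, 151% and 154%. The remaining called members lay between 62.7% for Mdh2 and 104% for Pgam1. The part of epithelial, fibroblast or mural transcripts in these positions was not tested. Without hyperoxia 3, 21 members were called higher and 4 lower, and 5303 genes were called in all. With every library kept, these counts were 18, 4 and 5535.

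**Figure D4:**
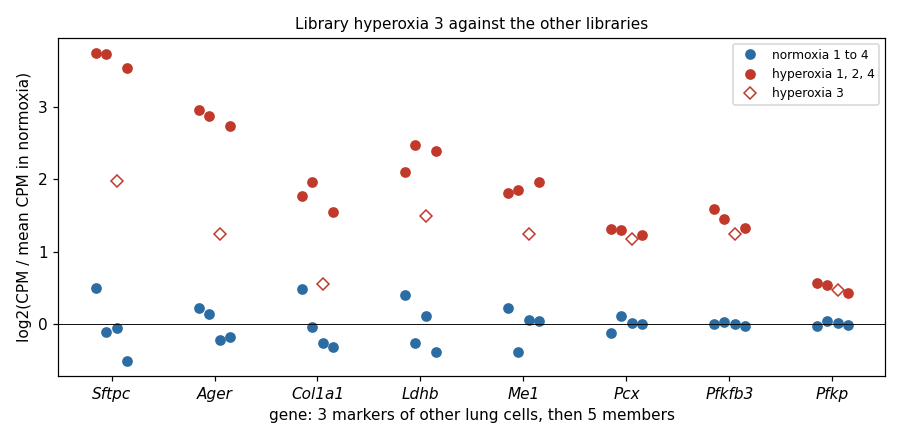
Log2 of CPM over the mean CPM in normoxia, in each library, for 3 markers of other lung cells (Sftpc, Ager and Col1a1) and 5 called members (Ldhb, Me1, Pcx, Pfkfb3 and Pfkp). Blue points are normoxia 1 to 4, red points hyperoxia 1, 2 and 4, and the open diamond hyperoxia 3, which lies well below the other hyperoxia libraries for the markers, Ldhb and Me1 and close to or among them for Pcx, Pfkfb3 and Pfkp.

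Other genes of the same pathways were taken from a list of 67, of which 58 could be tested. Of these, 14 were called higher and 3 lower, with a median log2 fold change of 0.06. That is 17 of 58, where 35.6% of all tested genes were called, 18.5% higher and 17.1% lower. Other glycolysis genes gave 6 higher and 1 lower of 21, pyruvate dehydrogenase and carrier genes 2 and 1 of 12, pentose phosphate genes 2 and 0 of 8, and citrate cycle genes 4 and 1 of 17. Prps2, which makes phosphoribosyl pyrophosphate from ribose 5-phosphate, was at 15.9, 12.9, 15.0 and 14.6 CPM in normoxia and 40.2, 38.1, 33.3 and 38.2 CPM in hyperoxia (1.36, SE 0.0839, adjusted p = 1.27e-06). Slc2a9, a transporter of urate and hexoses, was at 23.6, 27.0, 28.3 and 25.2 against 55, 51.7, 51.3 and 57.7 CPM (1.05, SE 0.0676, adjusted p = 1.66e-06). In both genes all hyperoxia libraries were clear of all normoxia libraries. Bpgm, the mutase that makes 2,3-bisphosphoglycerate, went from 48.6 ± 7.50 to 80.1 ± 8.09 CPM (0.72, adjusted p = 0.000482) and the aspartate aminotransferase Got1 from 12.6 ± 1.47 to 19.7 ± 2.92 CPM (0.64, adjusted p = 0.00196). The dicarboxylate carrier Slc25a10 went from 8.51 ± 0.815 to 12.4 ± 1.82 CPM (0.54, adjusted p = 0.00662) and the muscle mutase Pgam2 from 1.85 ± 0.108 to 3.39 ± 0.549 CPM (0.88, adjusted p = 0.00326). The scarce genes Hkdc1, a hexokinase-like enzyme, and Slc16a7 (MCT2) had the largest fold changes, from 0.175 ± 0.113 to 1.31 ± 0.610 CPM (2.88, adjusted p = 0.00129) and from 1.09 ± 0.363 to 3.90 ± 1.62 CPM (1.83, adjusted p = 0.00304). Hyperoxia 3 stood at 47.9% of the way for Hkdc1 and 16% for Slc16a7, against 77.1% for Prps2 and 87.7% for Slc2a9. Lower in hyperoxia were the muscle enolase Eno3, from 6.48 ± 0.734 to 4.37 ± 0.348 CPM (-0.57, adjusted p = 0.0068), and Suclg2, the GTP-forming subunit of succinyl-CoA ligase, from 36.0 ± 2.51 to 24.7 ± 2.07 CPM (-0.55, adjusted p = 0.000282). Sucla2, the ATP-forming counterpart of Suclg2, was not called, as above.

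**Figure D5:**
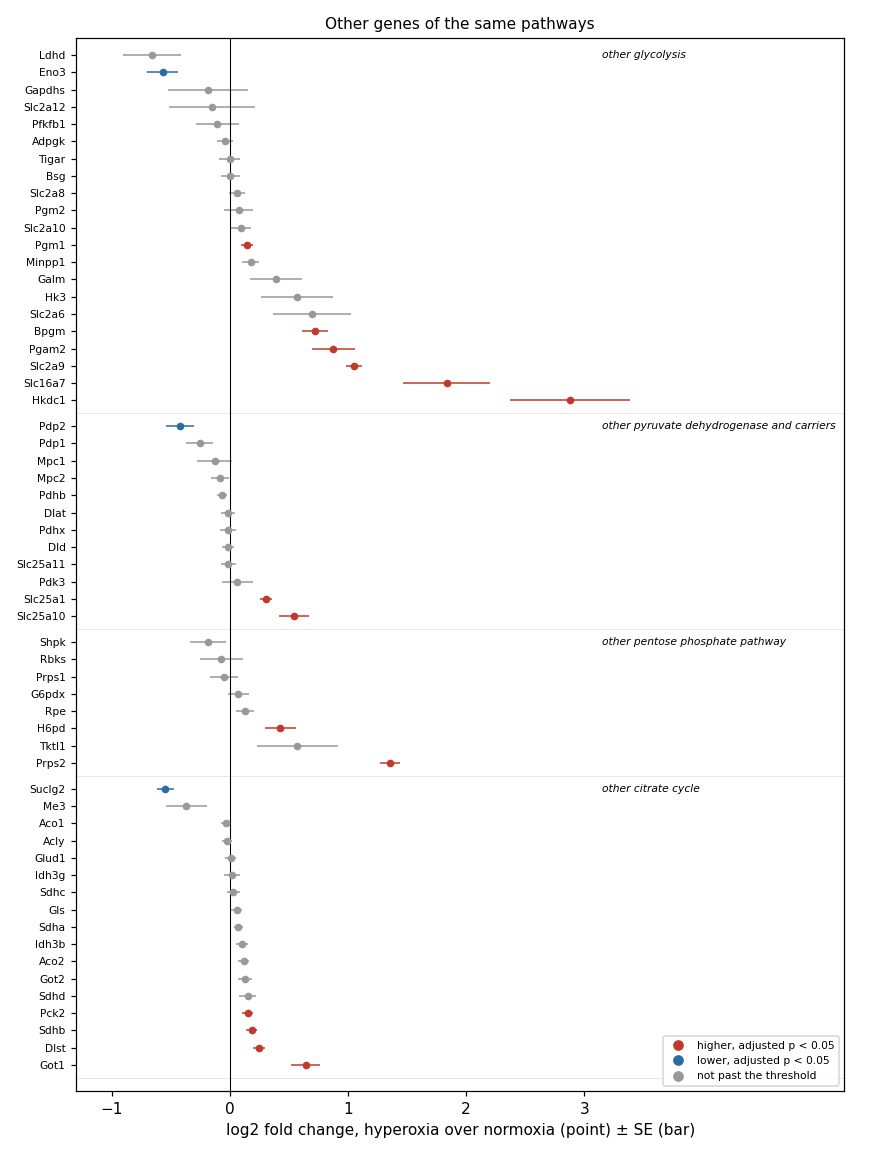
Log2 fold change of hyperoxia over normoxia for the 58 tested genes of the same pathways that are not members, with points for the estimate and bars for ± 1 SE (4 libraries a group), red for called higher, blue for called lower and grey for not called. Hkdc1, Slc16a7, Prps2 and Slc2a9 lie above 1, and Eno3, Pdp2 and Suclg2 are the 3 called lower.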

How the data were processed

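Bulk RNA-seq of lung ECs in 4 normoxia and 4 hyperoxia libraries was analysed from 2 deposited gene tables, of counts and of FPKM. The authors aligned reads with HISAT2 2.0.5 to mm10 and counted them per gene with featureCounts 1.5.0-p3, as listed in the submitters' processing notes, and deposited raw counts and FPKM. How multi-mapping reads and strand were counted is not given in the sources used here. The deposited FPKM values were used to compare levels between genes, for isozyme ratios and in the limma alternatives. They match the deposited gene lengths, which can differ from transcript lengths, so levels compared between genes depend on that choice. The labels name the groups and replicate numbers, and every value column was matched to a sample by its name.

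Counts were tested with edgeR 4.0.16 in R 4.3.3: filterByExpr, TMM factors, glmQLFit and glmQLFTest on the group alone, two-sided, with Benjamini-Hochberg adjustment over 15564 genes, called at adjusted p under 0.05. CPM use TMM-scaled library sizes. The SE of an edgeR log2 fold change is its size divided by the square root of the test's F statistic. The procedure was tested on simulated counts with known folds, which held no change in the mix of cells. Library totals of 16098086 to 18300730 reads with 4 libraries a group limit precision for genes of a few CPM.

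The members and all lists (roles, other pathway genes, markers) were chosen with earlier results of these data known. Every member is named. Values per library are given for called members whose log2 fold change was 0.5 or more in size, for the most abundant member of each role by FPKM and for isozyme pairs. Of the other pathway genes, those called and of that size are named, and of the markers the most abundant of each list. Near-identical copies were found by aligning each member's longest GENCODE M21 transcript to all transcripts, at 97% identity over at least 100 bases. Promoters are from RefSeq GRCm38.p6, matched by symbol for 43 of 46 members. Alternatives were other scalings and filters, DESeq2 1.42.0, limma 3.58.1 on log2(FPKM + 1) and log2(FPKM + 0.1), a replicate block, a marker score or Y-linked share as a covariate, stricter thresholds, and each library left out in turn.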

Additional observations from a re-analysis of the deposited data

Results flagged for a closer look

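Among the 122 groups of 4 libraries examined (the CPM of each member and each isozyme ratio, in each condition), 6 held a library farther from the other 3 than the 95% critical value of Dixon's ratio allows, where chance alone gives about 6.1. Phosphoglycerate kinase Pgk1 was at 76.8 CPM in hyperoxia 3 and 80.2 to 80.8 CPM in hyperoxia 1, 2 and 4. The mutase Pgam1 was at 63.0 CPM in hyperoxia 4 against 65.4 to 65.7. Pdk4 was at 1.71 CPM in normoxia 1 against 2.18 to 2.28. The succinyl-CoA ligase subunit Suclg1 was at 28.3 CPM in hyperoxia 3 against 35 to 36.1, which places that library among the normoxia values. Cytosolic malate dehydrogenase Mdh1 was at 51.8 CPM in hyperoxia 1 against 45.5 to 46.4, again within the normoxia range. The log2 FPKM ratio of Pfkfb4 over Pfkfb3 was -3.61 in hyperoxia 4 against -4.24 to -4.14. Hyperoxia 3 is also the library with the lowest alveolar epithelial marker sums of its group, and its part in the Pgk1 and Suclg1 values was not tested.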

How the results depend on the processing

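The 4 lower calls and 14 of the 18 higher calls held in all 19 alternatives other than the marker covariate and the stricter thresholds. With one library left out in turn, 4526 to 5445 genes, 15 to 21 higher members and 4 lower members were called. At adjusted p under 0.01, 3527 genes were called, and at adjusted p under 0.05 with a change of 2-fold or more, 1087 genes, with 4 members higher and 0 lower. With the alveolar epithelial score as a covariate, 211 genes were called, 1 member higher and 0 lower. Called members such as Pfkl (-0.50), Pdk2 (-0.89), Rpia (-0.70), Pcx (1.12), Slc2a1 (0.67), Gpi1 (0.46) and Hk1 (0.39) kept a fold change near or beyond that of the fit without it. Other called members came out closer to 0, among them Idh3a (0.018), Mdh2 (0.044), Ogdh (0.076), Slc16a1 (0.091), Pfkm (0.11) and Pgk1 (0.14). Of the members whose sign turned only Hk2 had been called. The sign turned for Slc2a3 (-1.09), Pfkfb4 (-0.53), Slc16a3 (-0.50), Suclg1 (-0.40), Hk2 (-0.30), Taldo1 (-0.27), Idh2 (-0.22), Aldoa (-0.20), Eno1 (-0.10), Pgd (-0.068), Sucla2 (-0.047), Tpi1 (-0.033), Pdha1 (-0.022), Gapdh (-0.012), Ldha (0.0071) and Me2 (0.033); the score does not overlap between the groups, so it and the condition cannot be told apart. Taldo1 was at -0.0055 with upper quartile factors and -0.0082 with library totals. Leaving out 1 library spread the log2 fold changes of members near 0 across it: the low Aldoa row from -0.15 to 0.39, Gapdh -0.11 to 0.14, Ldha -0.073 to 0.011, Pgls -0.074 to 0.015, Taldo1 -0.047 to 0.065, Idh2 -0.019 to 0.067 and Fh1 -0.071 to 0.0043. Same-numbered libraries deviated together only weakly or in opposite ways (correlations 0.10, 0.044, -0.15 and -0.20). Libraries of different number gave -0.27 to 0.31. These values show no pairing by number but are too few to exclude one. The replicate block gave 4792 genes, 15 members higher and 4 lower.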
